A study of Mus musculus with 12 samples.

Results

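The 31 genes described here encode enzymes of cholesterol synthesis, enzymes of fatty acid synthesis, and the factors that control both. They were taken by name, as a list drawn up with earlier results of these data known, from the 52670 gene symbols measured in RNA from the epithelium of the circumvallate papilla, a taste papilla of the mouse tongue. They comprise 15 sterol enzymes, 13 fatty acid enzymes and 3 regulators. All mice were adults of 11 to 12 weeks and carried Sox2GFP, so every group shares this fluorescent reporter of Sox2, a transcription factor of tongue progenitors. Dissociated cells were sorted by GFP brightness into the bins Low, MedLow, HiMed and High, and cells without GFP were thrown away, so each bin is a slice of 1 reporter-positive population. Each bin has 3 libraries of polyadenylated RNA, 12 in all, and each replicate pooled 7 to 13 mice. The comparisons ask how the 2 branches of lipid synthesis vary with Sox2 reporter brightness.

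Cholesterol is built from acetyl-CoA through mevalonate, squalene and lanosterol, whereas fatty acids are built from acetyl-CoA through malonyl-CoA and palmitate, which is then elongated and desaturated. The transcription factors SREBP-1 and SREBP-2, encoded by Srebf1 and Srebf2, drive fatty acid and sterol genes, and Insig proteins hold them in the endoplasmic reticulum when sterols are abundant. In stratified epithelia, cholesterol and very long fatty acids also go into the lipid barrier of the outer layers.

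Library totals ranged from 25.7 to 55.6 M counts. Sox2 itself ran from 63.8 to 76.1 CPM (counts scaled to a common library total by trimmed mean of M values) in Low, 97.1 to 99.3 in MedLow, 168 to 173 in HiMed and 358 to 382 in High, so the labelled order held in every library. The summed level of 6 basal keratinocyte markers (Krt5, Krt14 and others) was 32823 to 33347 CPM in Low and 5021 to 7645 CPM in High, with MedLow and HiMed between. That of 7 suprabasal markers (Krt4, Krt13 and others) was 7595 to 8762 CPM in Low, 25933 to 26788 in MedLow, 8383 to 25043 in HiMed and 1619 to 2538 in High. The 6 taste bud keratin and channel markers summed to 542 to 760.4 CPM in Low and to 328 to 518 CPM in MedLow, wholly below Low. Their sum was 800 to 988 CPM in HiMed and 2437 to 4439 CPM in High. Markers of single taste cell types did not all rise. The sum of 4 type I markers was 63 to 74 CPM in Low and 204 to 367 CPM in High. MedLow and HiMed had at most 37.9 CPM. Of these 4 markers, 3 were called higher in High than in Low and 1, Slc1a3, lower. The sum of 6 type II markers (Trpm5, Gnat3 and others) was 840 to 1007 CPM in Low and 418 to 496 CPM in High. That of 6 type III markers was 166 to 267 CPM in Low and 99.4 to 221 CPM in High, with Otop1 higher and Pkd1l3 lower in High. The sum of 7 von Ebner gland markers, of which 6 were tested and Pip was at 0, was 775 to 2477 CPM in Low and at most 248 CPM in the other bins. Aqp5 of that list went the other way, at 1.58 ± 0.592 CPM in Low and 22.4 ± 8.4 CPM in High (SD, n = 3 each). The bins therefore differed in their makeup of cell types, and its part in the differences between bins was not tested. HiMed replicate 1 stood apart: its suprabasal sum was 8383 CPM, against 18605 and 25043 CPM in the other HiMed libraries, and it was the lowest library of its bin for 28 of the 30 genes tested here (93.3%) and for 41.0% of all genes. Replicate 1 was also the lowest for most of the 30 genes in the other bins: for 23 in Low (76.7%, against 32.2% of all genes), 17 in MedLow (56.7%, against 31.4%) and 20 in High (66.7%, against 33.0%).

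Most of the lipid synthesis genes differed between High and Low, and more were higher than lower in High. Of 30 tested, 20 were called, 15 higher and 5 lower, where a call is an adjusted p below 0.05 in the quasi-likelihood test of edgeR. All adjusted p-values given here come from that test, with the Benjamini-Hochberg method over 17432 genes. Over all genes tested, 41.2% were called in this comparison, 20% as higher and 21.2% as lower. The libraries of High and Low did not overlap for 23 of the 30 genes, against 52.4% of all genes: High lay wholly above for 17, against 25.6%, and wholly below for 6, against 26.8%. Here and in every comparison, fewer cells of a type and less RNA per cell cannot be told apart, and the p-values measure only the spread between these pooled samples.

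Sterol enzymes were 15 of the 30 genes tested and held 11 of the 20 calls, near their share of the list. Among them 73.3% were called, and among fatty acid enzymes 50%, against 41.2% of all genes. Of 15 sterol enzymes, 9 were higher in High than in Low, 2 were lower (Hmgcs1 and Lss) and 4 were not called, with a median log2 fold change of 0.47, against -0.007 over all genes. Of 12 fatty acid enzymes tested, 3 were higher (Scd2, Elovl4 and Elovl7), 3 were lower (Scd1, Fads1 and Fads2) and 6 were not called, with a median of 0.12. Of all genes, 20% were called higher and 21.2% lower. All 3 regulators were higher, with a median of 0.68.

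The steps between neighbouring bins were uneven. For MedLow over Low, 12 of the 30 genes were called, 11 higher and 1 lower, against 6.47% of all genes called, 3.96% as higher and 2.5% as lower. All 3 MedLow libraries lay above all 3 Low libraries for 22 of the 30 genes, against 14.4% of all genes, and below them for 1; 27.4% of all genes did not overlap. For HiMed over MedLow, 1 was called higher and 2 lower, where 13.6% of all genes were called, 7.33% as higher and 6.3% as lower. The libraries of that pair did not overlap for 6 genes, all lower in HiMed, against 32.8% of all genes and 17% lower. For High over HiMed, 3 were called higher and 3 lower, where 22.3% of all genes were called, 10.6% as higher and 11.7% as lower, and the libraries did not overlap for 6 genes, against 35.3% of all genes. The sterol enzymes had a median log2 fold change of 0.49 for MedLow over Low, 0.05 for HiMed over MedLow and -0.09 for High over HiMed, and all 15 estimates of MedLow over Low were positive. The medians of all genes for these steps were -0.001, -0.015 and -0.009. The fatty acid enzymes had medians of 0.21, -0.02 and -0.10. Suprabasal markers moved with the MedLow step, with 2 of 7 called higher in MedLow than in Low, and their part in it was not tested.

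**Figure D1:**
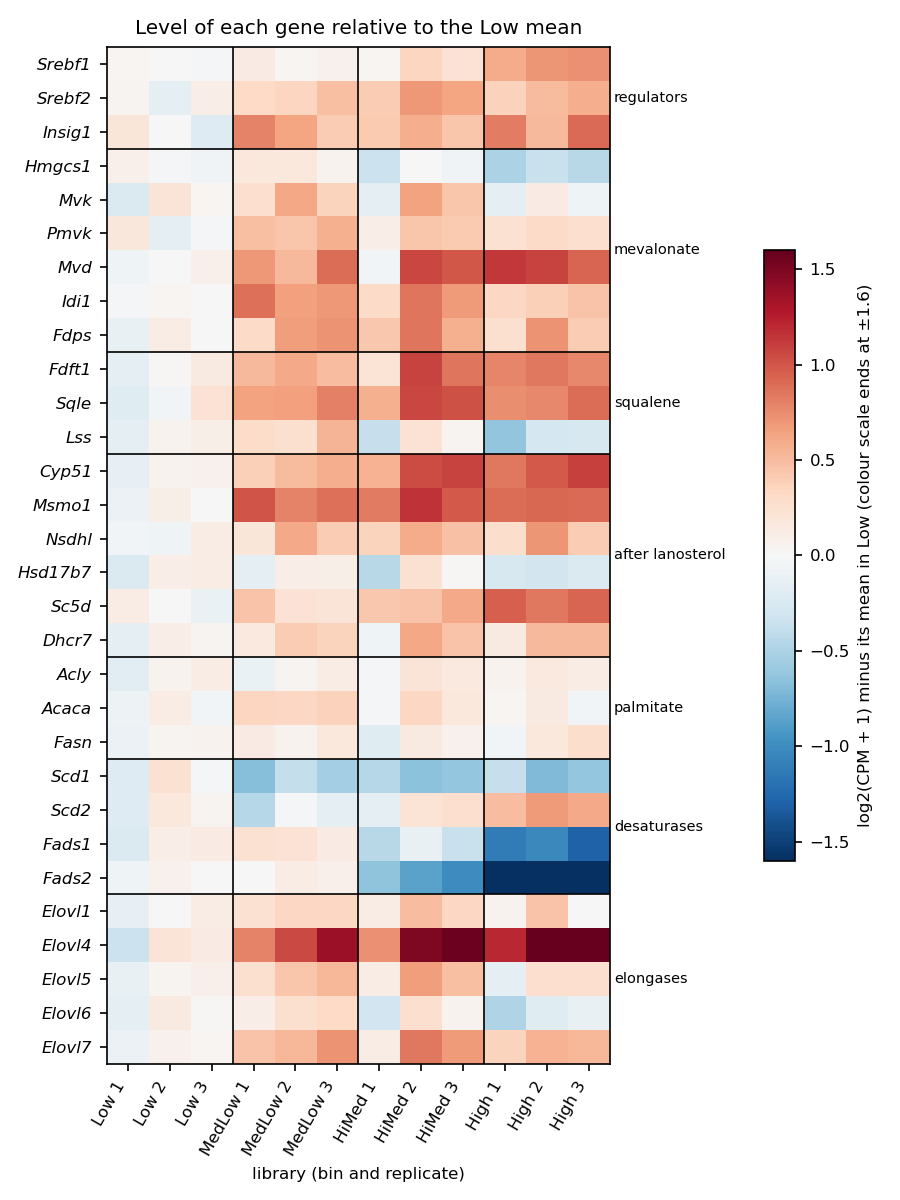
Level of each of the 30 detected genes in each of the 12 libraries, as log2(CPM + 1) minus the gene's mean in Low, with genes grouped by role and libraries in order of bin. Most sterol genes are red from MedLow onwards, Fads1 and Fads2 are blue in High, and HiMed 1 is paler than the other HiMed libraries.

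Calls for MedLow over Low depended on single libraries. The number of sterol enzymes called was 6 with all libraries, 3 without MedLow replicate 2, MedLow replicate 3, Low replicate 2 or Low replicate 3, and between 4 and 8 without each of the others. The calls of Idi1, Sqle, Msmo1 and Insig1 held whichever of the 12 libraries was left out. The fatty acid enzymes had 4 calls for this step with all libraries, 0 without MedLow replicate 3 or Low replicate 3, and 1 without any of the other 4 libraries of these bins.

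Srebf2, whose product favours sterol genes, stood at 225, 198 and 235 CPM in Low, 274, 278 and 307 in MedLow, 289.9, 355 and 339 in HiMed and 282, 312 and 329 in High. All libraries of the 3 brighter bins lay above all Low libraries. MedLow exceeded Low (log2 fold change 0.38 ± 0.09, adjusted p = 0.0215), and High exceeded Low as well (log2 fold change 0.49 ± 0.09, adjusted p = 5.6e-04). The MedLow call was lost without MedLow replicate 3, Low replicate 1 or Low replicate 2, with an adjusted p of up to 0.109. Srebf1, which favours fatty acid genes, had 151, 148 and 146 CPM in Low, 162, 152 and 155 in MedLow, 152, 189 and 175 in HiMed and 224, 242 and 246 in High. Its level was close in Low and MedLow and set High apart from every other library. High exceeded HiMed (log2 fold change 0.46 ± 0.08, adjusted p = 6.1e-04) and Low (log2 fold change 0.68 ± 0.08, adjusted p = 5.6e-06). In TPM, the transcript measure that divides by transcript length and allows genes to be set side by side, the ratio of Srebf1 to Srebf2 was 0.848 ± 0.099 for Low, 0.784 ± 0.0554 for MedLow, 0.673 ± 0.102 for HiMed and 1.04 ± 0.101 for High (SD, n = 3).

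Insig1, the anchor that retains SREBP in the endoplasmic reticulum and is itself an SREBP target, measured 83.6, 73.3 and 63.1 CPM in Low, 127, 113 and 96.7 in MedLow, 98.1, 109.9 and 99.8 in HiMed and 129.7, 105 and 137 in High. Every library of the brighter bins was above every Low library, and the brighter bins overlapped each other. MedLow was higher than Low (log2 fold change 0.61 ± 0.12, adjusted p = 0.00738), and so was High (log2 fold change 0.76 ± 0.12, adjusted p = 1.6e-04). Genes that process SREBP gave no call between High and Low: of Scap, Mbtps1, Mbtps2 and Insig2, edgeR called 0 of 4, DESeq2 0, and 1 had an unadjusted p below 0.05.

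Among the 6 mevalonate enzymes, 3 were higher in High than in Low and 1 was lower. Hmgcs1, which condenses acetyl-CoA into HMG-CoA at the head of the pathway, had 332, 308 and 302 CPM in Low, 352, 354 and 327 in MedLow, 247, 314 and 300.4 in HiMed and 221, 244 and 231 in High. High lay below every other library, while Low and MedLow overlapped. It was lower in High than in Low (log2 fold change -0.44 ± 0.09, adjusted p = 7.9e-04) and lower in High than in HiMed (log2 fold change -0.31 ± 0.09, adjusted p = 0.0188). The call against HiMed was lost without High replicate 1, HiMed replicate 2 or HiMed replicate 3, with an adjusted p of up to 0.0874. In TPM Hmgcs1 had the highest mean of the 31 genes in Low, at 157, and in MedLow, at 168, whereas in HiMed it stood at 152, below Elovl1 at 160.2, and in High at 134, below 5 others.

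Mvk, the kinase of mevalonate, averaged 37 ± 3.93 CPM in High and 38.2 ± 5.92 CPM in Low. Pmvk, the kinase of phosphomevalonate, averaged 25.4 ± 0.534 CPM in High and 20.9 ± 2.6 CPM in Low (SD, n = 3 each), and neither gene was called. Pmvk was called with scaling by library size alone (log2 fold change 0.35, adjusted p = 0.0342) and with TPM (0.44 with a pseudocount of 1, adjusted p = 0.00537 with limma). For MedLow over Low Pmvk was called (log2 fold change 0.51 ± 0.13, adjusted p = 0.024), at 29.9 ± 1.35 CPM in MedLow and 20.9 ± 2.6 CPM in Low. This call was lost without any MedLow library, Low replicate 2 or Low replicate 3 (adjusted p up to 0.106). Mvd, which makes isopentenyl pyrophosphate, averaged 23 ± 1.71 CPM in High and 10.6 ± 0.588 CPM in Low (log2 fold change 1.12 ± 0.24, adjusted p = 0.00134). Fdps, which joins these units into farnesyl pyrophosphate, averaged 92 ± 15.6 CPM in High and 66.3 ± 5.65 CPM in Low (log2 fold change 0.47 ± 0.14, adjusted p = 0.0171). The Fdps call was lost without High replicate 2 or Low replicate 1, with an adjusted p of up to 0.0772. Fdps shares 27.9% of its 31-base stretches with other genes, mainly a predicted gene, so its count is uncertain.

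Idi1, the isomerase between the 2 building blocks of isoprenoids, had 63.1, 65.8 and 64.4 CPM in Low, 119.6, 102 and 105 in MedLow, 79.9, 117 and 104 in HiMed and 81.1, 84.1 and 89 in High. All MedLow libraries were above all High libraries, and all of both were above Low. MedLow exceeded Low (log2 fold change 0.75 ± 0.11, adjusted p = 6.5e-04), and High exceeded Low by less (log2 fold change 0.40 ± 0.11, adjusted p = 0.0108). Its counts were not whole numbers in any library, at a tolerance of 0.001, and 18.8% of its stretches occur in other genes, so part of the level was assigned between near-identical sequences.

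All 3 squalene and lanosterol enzymes were called between High and Low, 2 higher and 1 lower. Fdft1, squalene synthase, averaged 83.5 ± 2.4 CPM in High and 47.9 ± 4.98 CPM in Low (log2 fold change 0.80 ± 0.17, adjusted p = 0.00173). Fdft1 shares 14.3% of its stretches with a predicted gene, and its counts were not whole in 8 libraries, so its count is uncertain. Sqle, squalene epoxidase, had 44.2, 49 and 59.6 CPM in Low, 79.8, 80.3 and 89.2 in MedLow, 75.7, 107 and 103 in HiMed and 85.4, 87 and 95 in High. The highest Low library was below the lowest library of each brighter bin. MedLow was above Low (log2 fold change 0.71 ± 0.13, adjusted p = 0.00369), as was High (log2 fold change 0.81 ± 0.13, adjusted p = 1.3e-04). Lss, which closes the ring to lanosterol, averaged 39 ± 5.6 CPM in High and 51.3 ± 4.51 CPM in Low (log2 fold change -0.39 ± 0.15, adjusted p = 0.0469), but this call was lost in 8 of 12 fits with 1 library left out, with an adjusted p of up to 0.179. It was lost without each High library, Low replicates 2 and 3, MedLow replicates 1 and 2, and HiMed replicate 3. With TPM and a pseudocount of 1, the Lss log2 difference was 0.04 and not called.

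Of 6 enzymes after lanosterol, 4 were higher in High than in Low and 2 were not called. Msmo1, which removes methyl groups from the sterol ring, had the smallest adjusted p of all sterol enzymes and measured 41.1, 46.6 and 43.8 CPM in Low, 88.9, 76.9 and 81.8 in MedLow, 78.4, 99.1 and 87.6 in HiMed and 82.5, 83.4 and 82.7 in High. All 9 libraries of the brighter bins exceeded all 3 Low libraries and overlapped each other. MedLow was 1.88-fold Low (log2 fold change 0.91 ± 0.09, adjusted p = 2.0e-05) and High was 1.89-fold Low (log2 fold change 0.92 ± 0.09, adjusted p = 1.2e-06). No further step was called for it: HiMed over MedLow had an adjusted p of 0.581 and High over HiMed of 0.534.

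Cyp51, the lanosterol demethylase, had 57.6, 65.5 and 66.1 CPM in Low, 82.1, 89.7 and 94.4 in MedLow, 93, 131 and 134 in HiMed and 114, 125 and 135 in High. It climbed over both lower steps, with MedLow above Low (log2 fold change 0.49 ± 0.12, adjusted p = 0.0238) and HiMed above MedLow on the mean (log2 fold change 0.43 ± 0.12, adjusted p = 0.0288), although HiMed replicate 1 fell within the MedLow range. The MedLow call was lost without any Low library, MedLow replicate 2 or MedLow replicate 3 (adjusted p up to 0.106), and the HiMed call without HiMed replicate 2 or 3 or MedLow replicate 1 or 2 (up to 0.137). High over Low was called in every such fit (log2 fold change 0.98 ± 0.12, adjusted p = 1.1e-05).

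Sc5d, lathosterol oxidase, followed brightness to the top bin, with 43.5, 39.8 and 37.2 CPM in Low, 55.5, 47.2 and 46.2 in MedLow, 54.2, 55.4 and 61.7 in HiMed and 78.4, 72.6 and 77.5 in High. The 3 High libraries exceeded all others and MedLow exceeded Low, while MedLow and HiMed overlapped. High was higher than HiMed (log2 fold change 0.42 ± 0.10, adjusted p = 0.00541) and higher than Low (log2 fold change 0.92 ± 0.10, adjusted p = 1.7e-06). Nsdhl, a sterol dehydrogenase, averaged 29.5 ± 4.64 CPM in High and 21 ± 1.56 CPM in Low (log2 fold change 0.49 ± 0.14, adjusted p = 0.0108), and its call was lost without High replicate 2 (adjusted p 0.0655). Hsd17b7 and Dhcr7 were not called: Hsd17b7 averaged 27.2 ± 0.608 CPM in High and 32.9 ± 4.42 CPM in Low, and Dhcr7, which makes cholesterol from its last precursor, 114 ± 16.2 CPM in High and 86.2 ± 8.03 CPM in Low. The missing call of Dhcr7 depended on the fit. It was called with DESeq2 (adjusted p 0.0298), with scaling by library size alone (0.0165), with a filter of 1 CPM (0.0417), with TPM and a pseudocount of 1 (0.0401) or 0.1 (0.0396), and without High replicate 1, HiMed replicate 1 or HiMed replicate 2, at log2 fold changes of 0.40 to 0.51. All 6 taste bud markers were called higher in High than in Low too. Of 4 type I taste cell markers, 3 were called higher and 1 lower. Of 6 type II taste cell markers, 4 were called lower and 0 higher, and of 6 type III markers, 4 lower and 1 higher. The part of these markers in the Sc5d difference was not tested.

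**Figure D2:**
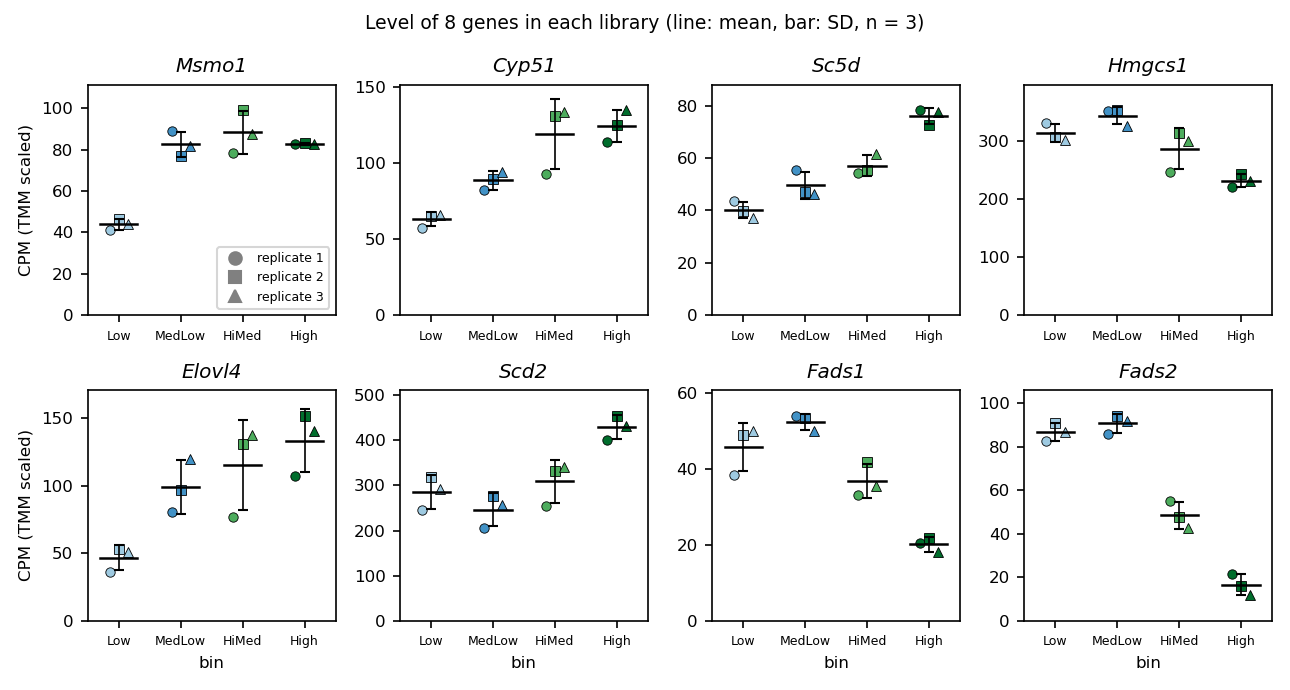
CPM of 4 sterol enzymes (top) and 4 fatty acid enzymes (bottom) in each library, by bin, with the mean and SD of 3 libraries and a marker shape for each replicate number. Msmo1 steps up once, between Low and MedLow, Sc5d is highest in all High libraries, Hmgcs1 is lowest in High, and Fads2 has 11.9 to 21.6 CPM in High.

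Sequence around the gene starts was read from RefSeq windows of mouse build GRCm38.p6, 250 bases before to 50 bases after each start, which matched 24 of the 31 genes by symbol. Elovl3, Fads1, Fdft1, Fdps, Scd1, Scd2 and Sqle were not matched. The box bound by NF-Y, a partner of SREBP, was searched as CCAAT on both strands. It occurred in 12 of 12 sterol enzyme genes, 3 of 3 regulators and 5 of 9 fatty acid enzyme genes (55.6%), against 41.1% of 27025 genes with windows. The core of the sterol regulatory element, searched as CACNCCAC on both strands, occurred in 1 of 12 sterol enzyme genes (Hmgcs1), 1 of 3 regulators (Insig1) and 1 of 9 fatty acid enzyme genes (Elovl7), against 7.12% of all. No match of one motif overlapped a match of the other.

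The 180 bases before the start of the 3 sterol enzymes with the smallest adjusted p, and of Hmgcs1, which holds both motifs and was added after its matches were seen, are shown 5′ to 3′ along the gene so that the boxes can be compared. Capitals mark CCAAT or its reverse complement ATTGG and, in Hmgcs1, 1 match of the element core. The coordinates are chr8:64733579-64733758, minus strand for Msmo1, chr9:42264301-42264480, minus strand for Sc5d, chr5:4104698-4104877, minus strand for Cyp51 and chr13:119690171-119690350, plus strand for Hmgcs1.
Msmo1: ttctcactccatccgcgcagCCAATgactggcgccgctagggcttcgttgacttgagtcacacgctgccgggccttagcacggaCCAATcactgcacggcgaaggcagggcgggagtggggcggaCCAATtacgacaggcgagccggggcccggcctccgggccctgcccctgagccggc
Sc5d: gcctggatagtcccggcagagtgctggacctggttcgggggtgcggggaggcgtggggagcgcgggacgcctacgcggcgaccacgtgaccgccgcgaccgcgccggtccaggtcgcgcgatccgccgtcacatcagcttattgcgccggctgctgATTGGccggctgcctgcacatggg
Cyp51: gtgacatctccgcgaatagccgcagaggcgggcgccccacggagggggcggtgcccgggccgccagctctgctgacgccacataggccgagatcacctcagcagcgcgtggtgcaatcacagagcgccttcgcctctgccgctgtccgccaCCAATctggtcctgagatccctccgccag
Hmgcs1: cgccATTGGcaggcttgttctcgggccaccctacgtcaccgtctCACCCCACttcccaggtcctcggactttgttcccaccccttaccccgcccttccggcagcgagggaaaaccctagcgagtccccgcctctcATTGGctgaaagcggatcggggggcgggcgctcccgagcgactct
Msmo1 has 3 CCAAT boxes in this stretch, beginning at bases -160, -96 and -55 from the start, while Sc5d has 1 at -24 and Cyp51 1 at -29. Hmgcs1, whose level moved the other way between High and Low, has boxes at -176 and -45 and the element core at -136. Its searched window holds further boxes at -237 and 11, outside the printed bases. A match here is a description of the letters, not of binding.

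The enzymes that make palmitate showed no called difference between High and Low. Of Acly, Acaca and Fasn, edgeR called 0 of 3, DESeq2 0, and 0 had an unadjusted p below 0.05. Acly, which supplies cytosolic acetyl-CoA, averaged 195 ± 6.31 CPM in High and 181 ± 19.5 CPM in Low. Acaca, which makes malonyl-CoA, averaged 109.6 ± 7.36 CPM in High and 106 ± 8.03 CPM in Low. Fasn, the synthase itself, averaged 372 ± 43.1 CPM in High and 338 ± 19.3 CPM in Low (SD, n = 3 each). The libraries of both bins overlapped for each of the 3 genes. In TPM, Fasn and Acly were called higher in High, by 0.54 and 0.30 on the log2 scale with a pseudocount of 1, a scale on which the median of all genes was itself shifted by 0.137. For MedLow over Low, Acaca was called (log2 fold change 0.35 ± 0.09, adjusted p = 0.0313), but the call was lost without any MedLow library, Low replicate 1 or Low replicate 3 (adjusted p up to 0.135), and 33.4% of its stretches occur in other genes, mainly a predicted gene.

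The desaturases held the largest decreases among the 30 genes: all 4 were called between High and Low, 3 of them lower. Fads2, the first desaturase of polyunsaturated fatty acid synthesis, had 82.7, 91 and 86.7 CPM in Low, 86, 94.2 and 91.7 in MedLow, 55, 47.5 and 42.5 in HiMed and 21.6, 15.8 and 11.9 in High. Low and MedLow overlapped, every HiMed library was below them, and every High library was below HiMed. HiMed was lower than MedLow (log2 fold change -0.91 ± 0.16, adjusted p = 0.0021), High was lower than HiMed (log2 fold change -1.56 ± 0.17, adjusted p = 2.2e-05), and High reached 0.189 of the Low level (log2 fold change -2.40 ± 0.17, adjusted p = 1.1e-07). These calls held whichever library was left out.

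Fads1, the next desaturase of the same pathway, had 38.5, 49 and 50 CPM in Low, 54.1, 53.4 and 50.1 in MedLow, 33.1, 42 and 35.5 in HiMed and 20.5, 21.8 and 18 in High. All High libraries were below all others and MedLow lay just above Low, while HiMed was below MedLow but overlapped Low. Lower levels were called for HiMed against MedLow (log2 fold change -0.51 ± 0.12, adjusted p = 0.011), for High against HiMed (log2 fold change -0.87 ± 0.12, adjusted p = 1.3e-04) and for High against Low (log2 fold change -1.19 ± 0.12, adjusted p = 1.7e-06). With TPM and a pseudocount of 1, the log2 difference of HiMed over MedLow was -0.17 and not called. Basal markers were lower too, with 6 of 6 called lower in High than in Low. Of these 6, 4 were called lower in MedLow than in Low, 4 in HiMed than in MedLow and 5 in High than in HiMed. For MedLow over Low, the libraries of MedLow lay wholly below those of Low for all 6 basal markers, against 13% of all genes. These include Krt15 (log2 fold change -0.35) and Col17a1 (-0.45), which were not called. Neither desaturase was called at that step, and their estimates were positive, at 0.2 for Fads1 and 0.06 for Fads2. Cycling cell markers (Mki67, Top2a and others) summed to 955 to 1177 CPM in Low, 1189.7 to 1348 in MedLow, 802 to 853 in HiMed and 457 to 636 in High. Of these 9 markers, 1 was called higher in MedLow than in Low, 6 lower in HiMed than in MedLow, 5 lower in High than in HiMed and 7 lower in High than in Low. The part of either marker list in the decrease was not tested. The TPM ratio of Fads2 to Fads1 was 2.11 ± 0.272 for Low, 1.93 ± 0.0794 for MedLow, 1.24 ± 0.216 for HiMed and 0.739 ± 0.093 for High (SD, n = 3).

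Scd2, a stearoyl-CoA desaturase that makes monounsaturated fatty acids, had 245, 319 and 293 CPM in Low, 206, 277 and 257 in MedLow, 254, 332 and 341 in HiMed and 401, 455 and 432 in High. All High libraries exceeded all others, and the 3 lower bins overlapped. It was higher in High than in HiMed (log2 fold change 0.47 ± 0.13, adjusted p = 0.0196) and than in Low (log2 fold change 0.59 ± 0.13, adjusted p = 0.00262). The call against HiMed was lost without High replicate 2, High replicate 3 or HiMed replicate 1, with an adjusted p of up to 0.0688.

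Its paralog Scd1 had 29.7, 40.6 and 33.4 CPM in Low, 21.1, 26 and 23.3 in MedLow, 24.8, 21.4 and 21.9 in HiMed and 26.3, 20.6 and 22 in High. All Low libraries were above those of the other bins, which overlapped. The counts gave a lower level in High than in Low (log2 fold change -0.59 ± 0.14, adjusted p = 0.00351) and in MedLow than in Low (log2 fold change -0.56 ± 0.14, adjusted p = 0.028). The MedLow call was lost without MedLow replicate 1 or 3 or Low replicate 2 or 3, with an adjusted p of up to 0.151. With TPM the log2 difference of High over Low was 0.00 with either pseudocount. The effective length behind the Scd1 TPM varied by 1.37 on the log2 scale across libraries, against a median range of 0.36 over 13652 genes, and that of Lss by 1.02. Scd1 shares 8.14% and Scd2 6.81% of stretches with other genes, mostly Scd3, and their counts were not whole in any library at the same tolerance. Of 7 sebocyte markers, 4 were tested and 1 was called between High and Low: Krt79, which was lower in High (log2 fold change -2.64 ± 0.42, adjusted p = 7.2e-04). Awat2, Far2 and Mc5r were not called, with log2 fold changes of -1.75, 1.81 and 0.17, and Awat1 was at 0 in every library. The summed level was 16.4 to 24.8 CPM in High and 90.8 to 142 CPM in Low, nearly all of it Krt79, and its part in the Scd1 difference was not tested. Of 8 adipocyte markers 0 had enough counts for a test, and their sum stayed at or below 0.519 CPM.

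Of 6 elongases, 5 were tested, and of these 2 were higher in High than in Low and 3 were not called. Elovl4, which makes the longest fatty acids of skin barrier ceramides, had 36, 53.3 and 50.6 CPM in Low, 80.3, 97.1 and 120 in MedLow, 76.8, 131 and 138 in HiMed and 107, 152 and 141 in High. Low lay below all other libraries, and the 3 brighter bins overlapped. High was 2.86-fold Low (log2 fold change 1.51 ± 0.26, adjusted p = 8.3e-04), the largest increase among the 30 genes. MedLow was higher than Low (log2 fold change 1.09 ± 0.25, adjusted p = 0.0315), a call lost without any Low library, MedLow replicate 2 or 3, or High replicate 3, with an adjusted p of up to 0.118. Elovl7, an elongase of saturated chains, averaged 54.6 ± 4.25 CPM in High and 38.8 ± 2.31 CPM in Low (log2 fold change 0.49 ± 0.15, adjusted p = 0.0158). That call was lost without High replicate 2, High replicate 3 or Low replicate 1, with an adjusted p of up to 0.0635.

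Elovl1, Elovl5 and Elovl6, which act on very long, polyunsaturated and palmitate chains, were not called between High and Low on counts without a replicate term. In TPM with a pseudocount of 1, Elovl1 was called higher (log2 difference 0.35, adjusted p = 0.0461 with limma). Elovl1 averaged 98.5 ± 18.1 CPM in High and 86.9 ± 7.39 CPM in Low, Elovl5 48 ± 7.85 CPM in High and 43.3 ± 2.99 CPM in Low, and Elovl6 55.5 ± 7.08 CPM in High and 66.8 ± 6.8 CPM in Low (SD, n = 3 each). Elovl3 had 0 counts in all 12 libraries, which allows up to 0.054 to 0.117 CPM, depending on the library (3 counts of its total, counting error only). The order of TPM levels changed with the bin. In High, Scd2 at 164, Elovl1 at 153 and Fdps at 149 had the highest means, and Fads2 at 9.57, Fads1 at 12.8 and Hsd17b7 at 14.5 the lowest of the 30 detected genes. In Low, Hmgcs1 at 157, Elovl1 at 119.8 and Fdps at 93.6 had the highest means, and Mvd the lowest, followed by Hsd17b7 at 15.3 and Nsdhl at 15.8.

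**Figure D3:**
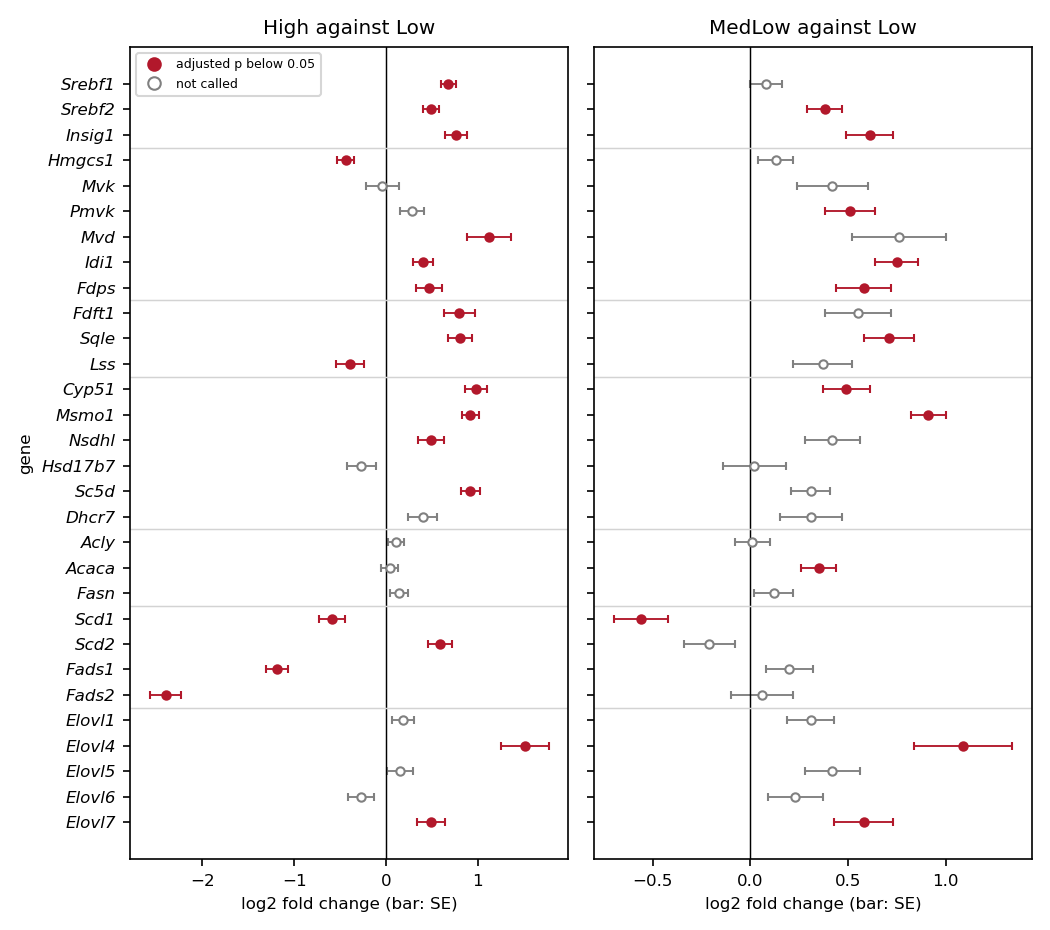
Log2 fold changes of the 30 detected genes, with SE, for High over Low (left) and MedLow over Low (right); filled red points have an adjusted p below 0.05. Every sterol enzyme lies right of 0 for MedLow over Low, whereas Hmgcs1 and Lss are called lower for High over Low and Fads2 reaches -2.40.

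Set side by side, the mean sterol level was higher in the 3 brighter bins than in Low, while the order of those 3 bins depended on the scale. For fatty acid enzymes the order of the bins depended on the scale as well. The mean of log2(CPM + 1) over 15 sterol enzymes was 5.56 ± 0.072 for Low, 6.04 ± 0.042 for MedLow, 6.04 ± 0.284 for HiMed and 5.98 ± 0.076 for High (SD, n = 3). The sterol mean of log2(TPM + 1) was highest in High, at 5.1 ± 0.127, 5.58 ± 0.05, 5.63 ± 0.231 and 5.72 ± 0.107 from Low to High. Its values overlapped among the brighter bins. Summed sterol CPM was highest in MedLow, at 1259 ± 22.3, and summed sterol TPM in High, at 939 ± 67.7. For 12 fatty acid enzymes the mean of log2(CPM + 1) was 6.40 ± 0.142, 6.62 ± 0.095, 6.50 ± 0.18 and 6.30 ± 0.072 from Low to High, highest in MedLow with overlap between bins. Their mean of log2(TPM + 1) was instead highest in HiMed, at 5.26 ± 0.149, 5.39 ± 0.107, 5.45 ± 0.161 and 5.42 ± 0.026 from Low to High. Their summed CPM, which the abundant genes dominate, was highest in High, at 1360 ± 121, 1498 ± 90.7, 1481 ± 198 and 1555 ± 117 from Low to High, as was their summed TPM. The difference between branches, sterol minus fatty acid, was -0.76, -0.91 and -0.84 in Low, -0.52, -0.60 and -0.61 in MedLow, -0.58, -0.40 and -0.41 in HiMed and -0.34, -0.34 and -0.28 in High. In these differences of log2(CPM + 1) means, all 3 High libraries were above every other library, and all Low libraries below, with an SD within bins of 0.07. As means of log2(TPM + 1), High replicate 1 had 5.6 for sterol and 5.41 for fatty acid enzymes. HiMed replicate 3 had 5.71 and 5.43, so the High libraries were not all above the others in TPM. HiMed replicate 1 was the lowest of its bin in both branches, and its difference lay within the MedLow range. From HiMed to High the sterol mean of log2(CPM + 1) did not rise. Of 12 fatty acid enzymes, 2 were called lower at that step, Fads1 (log2 fold change -0.87) and Fads2 (-1.56), and 1 higher (Scd2, 0.47). Their part in the branch difference was not tested. As means of log2(TPM + 1), the sterol branch was 0.63 and the fatty acid branch 0.16 higher in High than in Low, and the shift of all genes named above is part of both values. These means carry no test, since the genes were chosen with earlier results known.

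**Figure D4:**
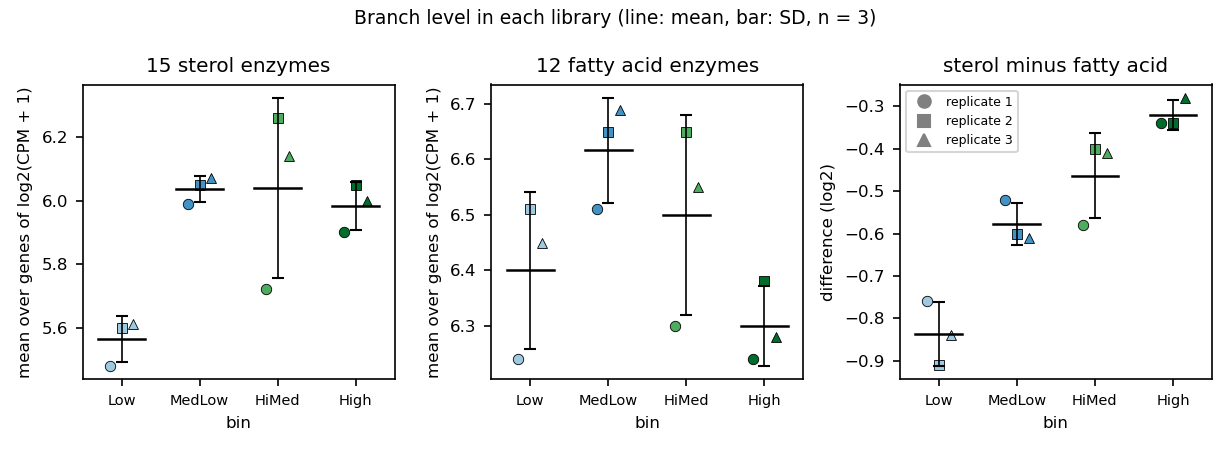
Mean of log2(CPM + 1) over 15 sterol enzymes (left), over 12 fatty acid enzymes (middle) and their difference (right) in each library, by bin, with the mean and SD of 3 libraries and a marker shape for each replicate number. The difference is lowest in Low, at -0.91 to -0.76, and highest in High, at -0.34 to -0.28. From HiMed to High the sterol mean goes from 6.04 to 5.98 and the fatty acid mean from 6.5 to 6.3. The vertical axes do not start at 0.

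Other lists of lipid genes are given for High over Low beside the 41.2% of all genes called in that comparison, 20% as higher and 21.2% as lower. Of 7 other sterol synthesis genes, 2 were called (28.6%, below the share of all genes), 1 higher and 1 lower: Tm7sf2, a sterol reductase, averaged 23.8 ± 5.0 CPM in High and 5.53 ± 0.309 CPM in Low (log2 fold change 2.10 ± 0.23, adjusted p = 2.8e-06), and Lbr, which has the same reductase activity in the nuclear membrane, averaged 44.9 ± 1.25 CPM in High and 67.9 ± 0.611 CPM in Low (log2 fold change -0.60 ± 0.08, adjusted p = 1.5e-05). Of 9 genes of sterol transport and LXR response, 7 were called (77.8%), 5 higher and 2 lower. Soat1, which esterifies cholesterol, averaged 46 ± 6.09 CPM in High and 11.4 ± 1.94 CPM in Low, with a log2 fold change of 2.01. Abcg1, a cholesterol exporter, changed by 1.63, Mylip by -0.81 and Npc1, which releases cholesterol from lysosomes, by -0.72.

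Of 15 tested among 16 other fatty acid synthesis genes, 9 were called (60%, against 41.2% of all genes), 7 higher and 2 lower in High. Acss2, which makes acetyl-CoA from acetate, averaged 32.3 ± 5.37 CPM in High and 12.6 ± 0.534 CPM in Low (log2 fold change 1.36 ± 0.14, adjusted p = 9.4e-07). Fads3 changed by 1.23 on the log2 scale, Mlxipl, a carbohydrate-responsive transcription factor, by -1.95 and Acacb by -1.05. Of 10 genes of fatty acid activation and triglyceride synthesis, 2 were called, a smaller share than among all genes, 1 higher (Acsl3, 0.62) and 1 lower (Agpat2, -0.42). Of 9 fatty acid oxidation genes, 7 were called (77.8%): 4 were higher, led by Ehhadh at 0.86 and Acadl at 0.79, and 3 were lower, led by Hadha at -0.50 and Acadvl at -0.31.

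Of 10 epidermal ceramide barrier genes, 6 were called (60%, against 41.2% of all genes), 4 higher and 2 lower. Degs2, which makes phytoceramides, averaged 31.3 ± 8.06 CPM in High and 2.15 ± 0.912 CPM in Low (log2 fold change 3.84 ± 0.42, adjusted p = 6.4e-06), and Sptlc3, a subunit of serine palmitoyltransferase, changed by 2.89. Pnpla1 averaged 1.31 ± 0.875 CPM in High and 17.8 ± 4.6 CPM in Low (log2 fold change -3.75 ± 0.47, adjusted p = 6.0e-05), and Aloxe3, a barrier lipoxygenase, changed by -2.35. The median log2 fold change of the 10 barrier genes was 0.11, and their share called lower was close to the 21.2% of all genes. The summed suprabasal markers given above were lower in High than in Low as well. Of these 7 markers, 4 were called lower and 1 higher (Krtdap, log2 fold change 0.70), and their part in the values of the barrier genes was not tested.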

How the data were processed

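The authors' deposited tables hold expected counts and TPM per gene symbol for 12 libraries. Per the submitters' processing notes, Salmon 1.4.0, DESeq2 1.28.1 and the build mm39 were used, while the sources used here do not give their roles or the annotation. Deposited TPM values are scaled within each library, so they keep no depth.

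Expected counts, which the authors left unscaled, were rounded to whole numbers. Genes passing filterByExpr (minimum count 10) were scaled by TMM and tested with edgeR 4.0.16 (R 4.3.3) in 1 quasi-likelihood fit of all 12 libraries with 1 term per bin and robust dispersion squeezing. Benjamini-Hochberg adjustment ran over 17432 genes, with calls at an adjusted p below 0.05. A standard error is the value implied by the F statistic. The fit was tested on simulated data. TPM was tested with limma 3.58.1 as log2(TPM + 1), and DESeq2 1.42.0 was an alternative.

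The 31 genes, the other lists and the markers were chosen with earlier results of these data known. Values per library are given for the regulators and for the 5 sterol and 5 fatty acid enzymes with the smallest adjusted p for any difference among bins; Hmgcs1 was added after its values were seen. From other lists, up to 2 called genes per direction with the largest fold change are named. Stretches of 31 bases shared between genes were counted in GENCODE transcripts. Totals of 25.7 to 55.6 M counts per library set the counting precision. Libraries of a bin differed by more than counting noise, so none is a copy of another. Leaving out each library, other scalings and filters, and a replicate block were the alternatives.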

Additional observations from a re-analysis of the deposited data

How the results depend on the processing

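Over all alternatives, results for single genes called in either setting kept direction and call in 772 cases, lost the call in 85, gained it in 53 and changed sign in 4. The sign changes were High over Low with TPM: Lss, called lower on counts, was at 0.04 with a pseudocount of 1 and 0.05 with 0.1, and Scd1, also called lower, was at 0.00 with both. The median of all genes moved to 0.137 and 0.172 in those TPM fits, against -0.007 on counts; the cause was not tested.

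With TPM and a pseudocount of 1 or 0.1, sterol enzymes called for High over HiMed numbered 1 and 1 (2 on counts), and for HiMed over MedLow 0 and 0 (1 on counts), where DESeq2 called 2. Fatty acid enzymes called numbered 1 and 1 for HiMed over MedLow (2 on counts) and 1 and 1 for MedLow over Low (4 on counts). All genes called numbered 1526 and 1512 for HiMed over MedLow (2377 on counts) and 704 and 663 for MedLow over Low (1127 on counts). The median of sterol minus that of fatty acid enzymes for MedLow over Low was 0.40 and 0.41 with TPM, against 0.28 on counts. As means of log2(TPM + 1), sterol enzymes were 0.63 and fatty acid enzymes 0.16 higher in High than in Low. The cause of these changes was not tested.

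With 1 library left out, sterol enzymes called ranged from 8 to 12 for High over Low, 1 to 6 for High over HiMed, 0 to 2 for HiMed over MedLow and 3 to 8 for MedLow over Low. Fatty acid enzymes called ranged from 5 to 6, 2 to 4, 2 to 3 and 0 to 5 for the same comparisons. Sterol enzymes called for High over HiMed numbered 6 without HiMed replicate 1 and 1 without High replicate 1, HiMed replicate 2 or HiMed replicate 3. The calls gained without HiMed replicate 1 were all lower in High: Mvk (log2 fold change -0.59), Lss (-0.54), Hsd17b7 (-0.41) and Idi1 (-0.39). For HiMed over MedLow the sterol enzymes called numbered 2 without HiMed replicate 1 or 2 and 0 without HiMed replicate 3, MedLow replicate 1 or MedLow replicate 2. All genes called ranged from 1402 (without MedLow replicate 2) to 2556 for HiMed over MedLow, and from 669 (without MedLow replicate 3) to 1335 for MedLow over Low, where 702, 730 and 718 were called without MedLow replicate 1, Low replicate 1 and Low replicate 3. The difference of the 2 medians for High over Low ranged from 0.31 to 0.42.

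The design describes replicates of pooled mice without saying that a number marks 1 pool in every bin. The deviations of 9650 genes around their bin means had correlations of 0.0586 to 0.411 between the 18 pairs of libraries with 1 number, 15 of them above 0.1. The 36 pairs with different numbers had correlations of -0.321 to 0.101, 1 of them above 0.1. All 12 libraries correlated best with their own number, a hint from the data only. With a replicate block, sterol enzymes called numbered 4 for High over HiMed, 3 for HiMed over MedLow and 10 for MedLow over Low, and fatty acid enzymes 5 for High over HiMed. For High over HiMed the block added Mvk (log2 fold change -0.36), Lss (-0.37), Elovl5 (-0.3) and Elovl6 (-0.28), all lower in High. For High over Low the block called 12 sterol enzymes, adding Dhcr7 (adjusted p = 0.0015 with edgeR), and 7 fatty acid enzymes, adding Elovl6 as lower (log2 fold change -0.27, adjusted p = 0.0228 with edgeR).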
